A study of Mus musculus with 2 samples.

Results

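Histone genes were taken from the gene table by their symbols: those beginning with Hist1h, Hist2h, Hist3h, Hist4h or H2af, together with H1f0, H3f3a and H3f3b. This gave 76 of the 23235 genes in the table, 65 replication-dependent and 11 variant. The replication-dependent genes comprised 6 linker histone H1, 16 H2A, 19 H2B, 12 H3 and 12 H4 genes. Another 3 rows that carried several histone symbols each were left out. The series compares 2 primary mouse acute promyelocytic leukaemias, APL#1 and APL#2, described as clones with different frequencies of leukaemia-initiating cells. Both came from C57BL/6-Ly5.2 mice labelled as PML-RAR, named mCG-PML-RAR transgenic in the source label and PML-RAR KI in the genotype label, aged 10 weeks and untreated per the labels, although both titles carry VEH. APL#1 was passed to CD45.1+ recipients, which had not been irradiated, at 2000000 cells and APL#2 at 200000 cells, and leukaemic cells positive for CD45.2 were isolated from spleen with immunomagnetic columns. Each leukaemia gave 1 library, so leukaemia, recipient, cell dose and library cannot be told apart, and no difference has a replicate check.

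Histones are the proteins around which DNA is wrapped, and H1 binds the DNA between the wrapped units. Replication-dependent histone genes lie in clusters, have mostly no introns, and are transcribed in S phase; their RNA ends in a stem-loop bound by the protein SLBP in place of a poly(A) tail. Variant genes are mostly scattered and intron-containing, make polyadenylated RNA through the cell cycle, and encode histones such as H3.3, H2A.Z and macroH2A that are put into chromatin outside replication.

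Levels are FPKM, the fragments on a gene scaled to its length and to the size of the library, which compares genes per unit of length. Low FPKM values stepped in whole fragments: 1 fragment on a gene of 1 kb was worth 0.0220 FPKM in APL#1 and 0.0203 in APL#2. These steps gave estimated fragments for the 62 histone genes counted here as without introns. Such genes had only single-exon GENCODE transcripts and a row spanning at most 3000 bases. Hist1h1e, single-exon in GENCODE but with a row of 38889 bases, is therefore not among them. Only 9 of the 61 genes so counted and above 0 had whole fragments in both libraries within 0.05. Many histone genes are close copies, so levels of single genes in a family are uncertain where reads were split among copies. Of all 50-base stretches in their GENCODE transcripts, a median of 50.7% per replication-dependent gene and 93.3% per variant gene occurred in no other gene. In the table, 39 of the 65 replication-dependent genes spanned under 500 bases and none of the variants did.

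The promyelocyte content and the composition of the samples were checked with marker genes. All 4 promyelocyte markers were present, at 661.8 FPKM in APL#1 and 157.3 in APL#2 for Mpo, 32.4 and 5.01 for Elane, 3.45 and 2.45 for Prtn3, and 7.89 and 8.99 for Ctsg. Their sum was 705.5 and 173.7 FPKM, and 3 of the 4 were lower in APL#2. Sums were at most 0.687 FPKM in either library for erythroid, B cell, T cell, macrophage and NK cell markers, with Hbb-b2, Epor and Ncr1 at 0 in both. Only 5 of the 7 listed erythroid markers have a row, and the globin genes Hba-a1 and Hbb-b1 have none. All 5 B cell and 6 T cell markers were higher in APL#2, at 0.158 FPKM or less. Of 5 macrophage markers 2 were higher, Emr1 at 0.0230 and 0.537 FPKM, and 3 lower. The erythroid and NK cell markers above 0 were lower. Of the 3 megakaryocyte markers, Itga2b stood at 2.34 and 3.95 FPKM and Pf4 and Ppbp at 0. The part of cell composition in the histone values was not tested.

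The stem-loop is the feature that sets the replication-dependent RNAs apart, so it was looked for first. The 16-base stretch present in the GENCODE M21 transcripts of the most replication-dependent genes, 24 of 65, was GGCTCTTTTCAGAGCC, the letters of the histone stem-loop. Searched on the transcript strand with up to 3 mismatches, they were found in 41 of the 65 replication-dependent genes and in 1 of the 11 variants, H2afx, against 1.23% of 141767 transcripts of all genes. H2afx is known to make both a stem-loop and a polyadenylated RNA. The sites of the genes on which the later results turn are given with the 16 searched letters in capitals, 5′ to 3′, in GRCm38.
Hist1h3b, chr13:23752815-23752840, plus strand: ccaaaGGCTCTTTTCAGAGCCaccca
Hist1h3e, chr13:23561898-23561923, minus strand: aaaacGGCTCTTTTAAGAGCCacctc
Hist1h2bg, chr13:23571838-23571863, plus strand: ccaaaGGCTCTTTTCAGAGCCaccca
Hist1h1c, chr13:23739507-23739532, plus strand: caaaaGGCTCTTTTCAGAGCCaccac
Hist4h4, chr6:136803993-136804018, minus strand: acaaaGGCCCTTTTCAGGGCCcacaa
H2afx, chr9:44335235-44335260, plus strand: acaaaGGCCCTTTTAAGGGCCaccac
The first lines differ little although the H3, H2B and H1 genes encode different proteins. The Hist4h4 site differs from the searched letters at 2 positions and the H2afx site at 3. No match says only that the annotated transcript lacks these letters.

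Promoters, windows of 300 bases around each start in RefSeq (GRCm38.p6), were found for 58 replication-dependent and 8 variant genes. The letters TATAAA, on either strand, were in 55.9% of the 59 replication-dependent promoters and 12.5% of the 8 variant ones, against 13.6% of 32851 promoters of all genes. CCAAT was in 86.4%, 75.0% and 37.4%, respectively, but in only 27.3% of the H4 promoters and in all those of replication-dependent H1, H2A, H2B and H3 genes. The octamer ATTTGCAT, a known element of H2B promoters bound by Oct-1, was in 46.7% of H2A and 41.2% of H2B promoters, in none of those of replication-dependent H1, H3 and H4 genes, and in 1.74% of all promoters. Windows of close H2A and H2B genes can overlap, as for Hist1h2aa and Hist1h2ba, so the same octamer can count in both shares. The shares describe letters and not sites of binding. Shown here are the promoters of an H3 gene that holds both boxes, of the H2B gene with the widest difference toward APL#2, and of the variants with the highest level and with the opposite direction to the other variants, with TATAAA and CCAAT (on the other strand ATTGG) in capitals.
Hist1h3b, chr13:23752095-23752394, plus strand: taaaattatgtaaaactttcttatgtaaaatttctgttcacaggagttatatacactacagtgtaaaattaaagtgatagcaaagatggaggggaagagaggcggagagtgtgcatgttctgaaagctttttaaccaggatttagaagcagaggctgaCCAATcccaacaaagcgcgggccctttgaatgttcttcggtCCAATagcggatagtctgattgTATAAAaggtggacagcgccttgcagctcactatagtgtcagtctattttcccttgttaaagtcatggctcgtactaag
Hist1h2br, chr13:21833493-21833792, plus strand: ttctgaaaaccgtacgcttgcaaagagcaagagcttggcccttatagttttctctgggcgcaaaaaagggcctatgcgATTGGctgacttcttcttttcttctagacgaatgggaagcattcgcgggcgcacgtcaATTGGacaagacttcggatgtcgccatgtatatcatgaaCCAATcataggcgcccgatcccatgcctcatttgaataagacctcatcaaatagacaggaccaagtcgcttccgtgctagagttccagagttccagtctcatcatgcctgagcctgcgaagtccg
H3f3a, chr1:180813556-180813855, minus strand: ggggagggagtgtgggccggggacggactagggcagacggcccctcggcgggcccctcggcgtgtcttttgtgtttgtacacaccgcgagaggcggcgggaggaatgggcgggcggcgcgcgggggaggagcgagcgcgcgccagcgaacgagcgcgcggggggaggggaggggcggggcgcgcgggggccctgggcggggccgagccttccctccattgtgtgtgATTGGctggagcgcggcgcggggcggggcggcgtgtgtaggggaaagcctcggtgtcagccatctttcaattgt
H2afj, chr6:136807998-136808297, plus strand: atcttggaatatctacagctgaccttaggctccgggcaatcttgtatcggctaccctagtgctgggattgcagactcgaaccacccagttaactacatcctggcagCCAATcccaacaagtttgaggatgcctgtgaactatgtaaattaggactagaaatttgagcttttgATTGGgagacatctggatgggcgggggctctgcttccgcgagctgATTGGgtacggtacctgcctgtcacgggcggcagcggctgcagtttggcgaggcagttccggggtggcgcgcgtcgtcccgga
Of the 4, only the Hist1h3b window holds TATAAA, and each holds at least 1 CCAAT. The share of G and C was 40.7% in the Hist1h3b window, 49.3% in that of Hist1h2br, 55.3% in that of H2afj and 74.0% in that of H3f3a.

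**Figure D1:**
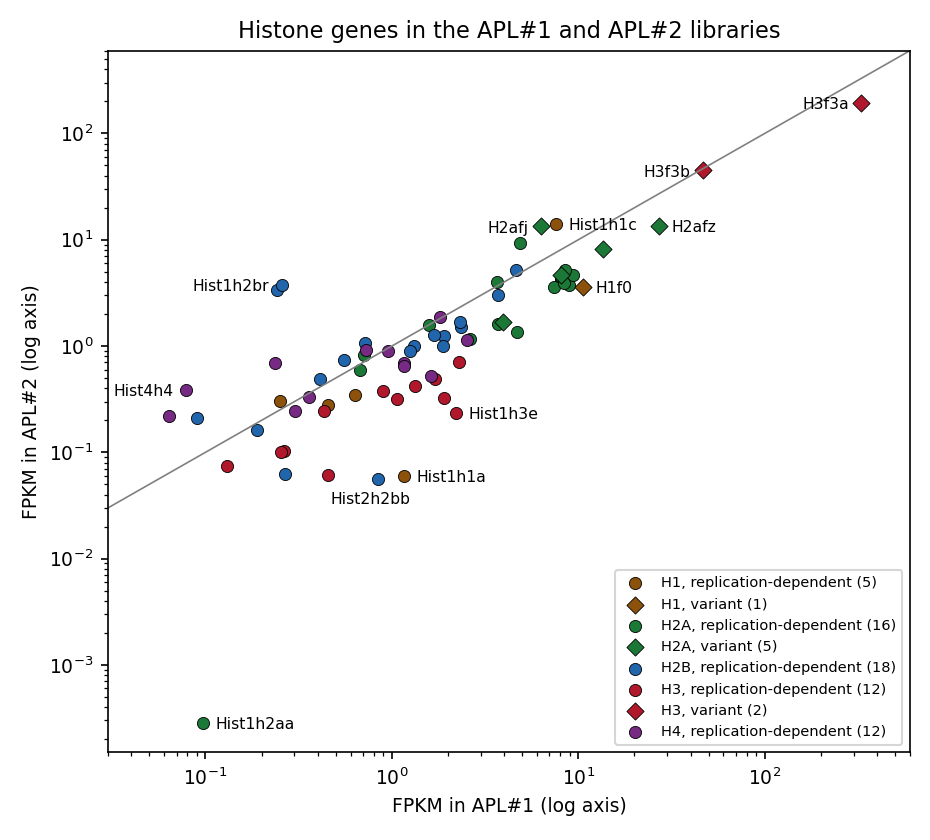
FPKM in APL#1 (x axis) against APL#2 (y axis), both on log axes, for the 71 histone genes above 0 in both libraries, coloured by histone type, with circles for replication-dependent and diamonds for variant genes and a line where both libraries are equal. H3f3a is the highest point, all 12 replication-dependent H3 genes lie below the line, and Hist1h2br and its near-copy Hist1h2bq lie far above it.

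Variant genes held most of the histone signal, and H3f3a alone was 56.3% of the summed FPKM of all 76 genes in APL#1 and was also the highest in APL#2. How RNA was selected is not stated in the labels, and its part in the variant share was not tested. Summed over the 11 variants, the level was 446.0 FPKM for APL#1 against 284.5 for APL#2, a ratio of 0.638. Summed over all 23235 genes it was 34890 and 35240 FPKM, a ratio of 1.01. Summed over the 65 replication-dependent genes it was 140.2 and 104.3 FPKM, a ratio of 0.744. The 59 of these without introns had 2637 and 2761 estimated fragments, a scaled ratio of 0.966 (95% counting interval 0.915 to 1.02), in which long genes such as Hist1h1c weigh more than in a sum of FPKM. Of the 10 variants above 0, 7 were lower in APL#2, against 60.9% of all 14062 genes above 0 in at least 1 library, and H2afj was the abundant exception.

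The 2 genes of H3.3, the H3 variant used outside replication, gave different ratios. H3f3a (mm9 chromosome 1, 182732699 to 182743734) had 329.9 FPKM in APL#1 but 194.5 in APL#2, giving a ratio of 0.590. H3f3b (mm9 chromosome 11, 115883275 to 115885818) stood at 46.4 and 44.8 FPKM, a ratio of 0.966. H3f3a was thus above H3f3b by 7.10 times in APL#1 and 4.34 times in APL#2, although both genes encode the same protein.

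Of the 7 H2A variants above 0, 4 were lower in APL#2 and 3 higher, beside the 60.9% of all genes that were lower; the 4 were H2afz, H2afv, H2afx and H2afy. H2afz, which encodes H2A.Z, a variant placed at promoters, stood at 27.3 and 13.6 FPKM, a ratio of 0.499, and H2afv, the other H2A.Z gene, at 3.94 and 1.68, a ratio of 0.427. H2afx, whose protein is phosphorylated beside DNA breaks, stood at 13.6 and 8.20 FPKM. Its 895.1 and 586.1 estimated fragments gave a ratio of 0.604 (95% counting interval 0.543 to 0.671). H2afy, which encodes the large histone macroH2A1, stood at 8.07 and 4.64 FPKM, a ratio of 0.575. Both H2A.Z genes thus had plain ratios under 0.5, while H2afx and H2afy lay somewhat above.

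H2afj, an H2A variant gene on mm9 chromosome 6 (136756769 to 136758595), went the other way, from 6.30 FPKM in APL#1 to 13.4 in APL#2, a ratio of 2.12. Its neighbour Hist4h4 also had the higher level in APL#2, with 0.0785 and 0.387 FPKM, 12 and 63.9 estimated fragments and a ratio of 4.93 (95% counting interval 2.63 to 10.0). Of 11 other measured genes within 5 megabases of H2afj, 8 were higher in APL#2, with a median log2 difference of 0.15. Of all 4100 measured genes 1163 were higher, and their median difference was -0.17. The part of the position of H2afj in the result was not tested. H2afy2, of macroH2A2, was listed at 0 and 0.00916 FPKM, H2afy3 at 0 and 0.00367, and H2afb1 at 0 in both libraries.

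H1f0, the linker histone variant known from cells that stop dividing, was the variant with the lowest ratio. It had 10.6 FPKM in the APL#1 library and 3.59 in the APL#2 library (mm9 chromosome 15, 78858642 to 78860930), or 1256 and 462.4 estimated fragments, a ratio of 0.340 with a 95% counting interval of 0.304 to 0.378. The authors' deposited table gave H1f0 p = 0.0265 and q = 1.000, and the standard error implied by its statistic was 0.70 on the log2 scale. That error is far wider than the counting interval.

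Replication-dependent genes were lower in APL#2 in 47 of 65 cases, and the histone types differed among themselves. H3 genes were lower in 12 of 12, H2A in 13 of 16, H2B in 12 of 19, H4 in 7 of 12 and H1 in 3 of 6, beside the 60.9% of all genes. The median FPKM ratio of genes above 0 in both libraries was 0.313 for H3, 0.514 for H2A, 0.622 for H1, 0.787 for H2B and 0.936 for H4, against 0.582 for the variants and 0.874 for all 12226 such genes. No test compared the types, since genes of a type share sequence and can share reads.

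**Figure D2:**
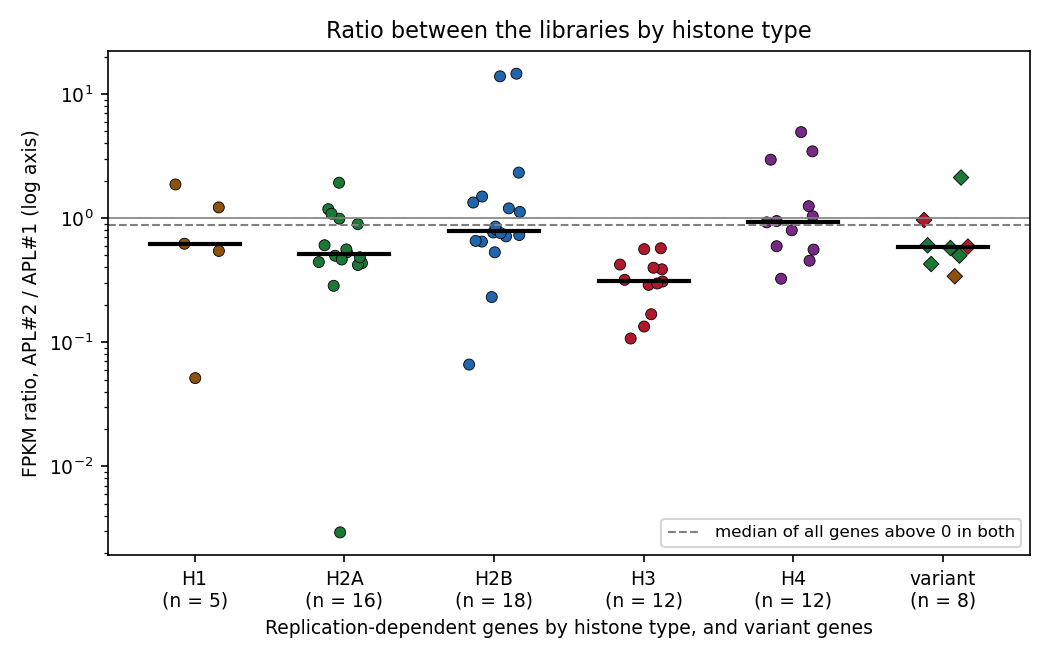
Ratio of FPKM in APL#2 to APL#1 on a log axis for each histone gene above 0 in both libraries, by type of replication-dependent gene and for the variants; black bars are medians, the solid line marks equal levels and the dashed line the median of all genes, 0.874. All H3 points lie at or below 0.571, whereas H4 points lie on both sides of 1; the lowest H2A point, Hist1h2aa, rests on 1 fragment.

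Single ratios were lowest for Hist1h2aa, Hist1h1a and Hist2h2bb among genes above 0 in both libraries. By median ratio, the 12 replication-dependent H3 genes were the lowest of the 5 types. Their summed level was 12.9 FPKM for APL#1 against 3.45 for APL#2, from 206.7 and 67.5 estimated fragments, which is a ratio of fragments, scaled to the libraries, of 0.301 (95% counting interval 0.227 to 0.400). Hist1h3c was the highest, at 2.28 and 0.703 FPKM. Hist1h3e stood at 2.20 and 0.235 FPKM (26.4 and 3.1 fragments), Hist1h3b at 1.91 and 0.321 (22.9 and 4.2) and Hist1h3d at 1.70 and 0.492 (20.4 and 6.4). Hist1h3b and Hist1h3e were at least 2-fold lower also with 1 FPKM added to each level. The other 8 H3 genes had levels of 0.130 to 1.33 FPKM in APL#1 and 0.0610 to 0.424 in APL#2. The lower level was seen in all 9 H3 genes of the Hist1 cluster on chromosome 13 and all 3 of the Hist2 cluster on chromosome 3. Beside the H3.3 genes, whose summed level was 376.3 and 239.4 FPKM, the ratio of variant to replication-dependent H3 RNA was 29.1 in APL#1 and 69.4 in APL#2. The part of RNA selection, which the labels do not state, in these ratios was not tested.

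H2A genes gave 58.1% of all replication-dependent FPKM in APL#1 and 48.3% in APL#2. All 12 H2A genes of the Hist1 cluster were lower in APL#2 and all 3 of the Hist2 cluster were higher. Hist1h2ah, the highest in APL#1, stood at 9.33 and 4.64 FPKM, Hist1h2af at 8.96 and 3.75 and Hist1h2ak at 4.71 and 1.34. The last 2 were 2-fold lower or more with 1 FPKM added to each level, and Hist1h2ak had the lowest ratio of the measured H2A genes, 0.285 (95% counting interval 0.151 to 0.505).
Hist1h2ap (8.54 and 5.16 FPKM), Hist1h2an (8.41 and 3.90), Hist1h2ad (8.12 and 4.30), Hist1h2ag (8.03 and 4.49) and Hist1h2ai (7.40 and 3.57) lay close to them. Hist1h2ab (3.69 and 1.60 FPKM) and Hist1h2ae (2.64 and 1.17) were lower in level with like ratios, 0.434 and 0.443. Hist1h2ac was the exception in the cluster, at 1.59 and 1.57 FPKM, a ratio of 0.990 (0.815 to 1.20). In the Hist2 cluster, Hist2h2aa2 stood at 4.88 and 9.41 FPKM, a ratio of 1.93 (1.52 to 2.45), and Hist2h2ac at 3.68 and 3.99. None of the 50-base stretches of Hist2h2aa2 is unique, since Hist2h2aa1 is a copy of it. The row with both of those symbols, which was left out, stood at 3.90 and 6.89 FPKM. The rows left out for Hist1h2ao with Hist1h2ap (3.55 and 1.45) and Hist1h4m with Hist1h4n (0 and 0.309) also overlap rows kept here.

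**Figure D3:**
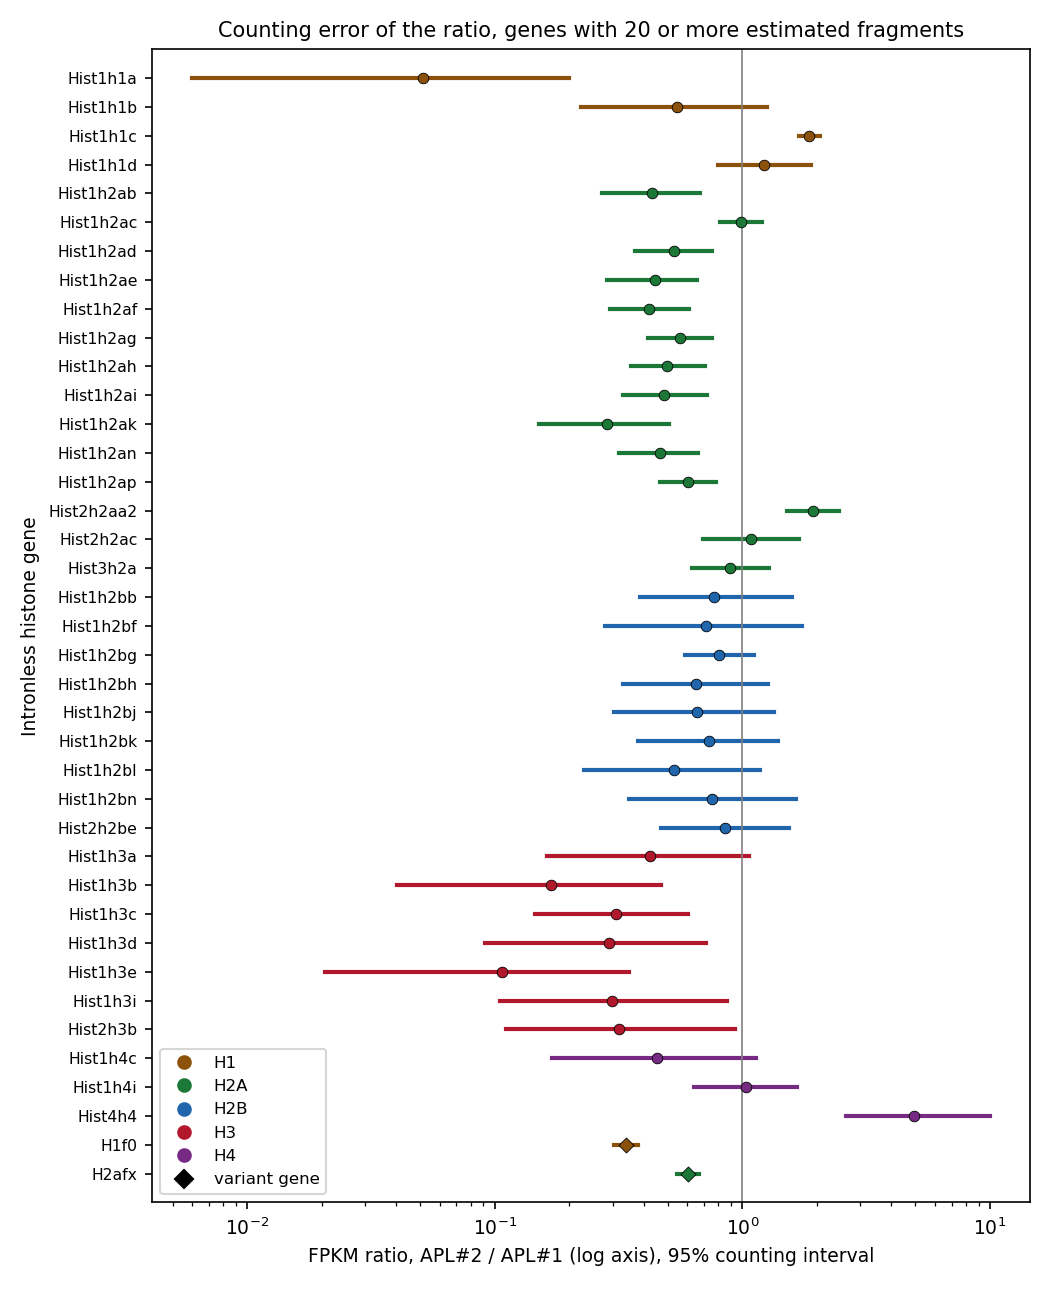
Ratio of FPKM in APL#2 to APL#1 (points, log axis) with exact 95% counting intervals (lines) for the 39 intronless histone genes with at least 20 estimated fragments over both libraries; circles are replication-dependent and diamonds variant genes. Intervals of 10 of 14 H2A and 6 of 7 H3 genes lie wholly below 1, whereas all 9 H2B intervals hold 1. Genes of a type can share reads, and the share of all genes with such intervals was not computed.

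The intervals, exact Clopper-Pearson limits on the split of fragments between libraries, cover counting error only. Among 39 genes with at least 20 fragments, 19 had an interval wholly below a ratio of 1, 3 wholly above and 17 holding 1. The share of all genes with such intervals was not computed, so these counts are not a result about histone genes. A ratio of 1 is not the middle of all genes, whose median ratio was 0.874. Of all measured genes, 71.6% were lower in APL#2. The genes with intervals above 1 were Hist1h1c, Hist2h2aa2 and Hist4h4. For the 9 H2B genes in this set the difference was not detectable at this depth.

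The H2B genes went both ways, 12 lower and 7 higher in APL#2. The 12 include Hist3h2bb-ps, whose symbol marks a pseudogene, at 0.268 and 0.0619 FPKM. Hist1h2bc was the highest at 4.63 FPKM in APL#1 and 5.19 in APL#2, followed by Hist1h2bg at 3.71 and 2.99. Hist1h2bh (2.35 and 1.52), Hist1h2bk (2.33 and 1.70), Hist1h2bj (1.90 and 1.25), Hist1h2bl (1.88 and 0.998), Hist1h2bn (1.69 and 1.28), Hist1h2bb (1.31 and 1.00) and Hist1h2bf (1.25 and 0.894) were all lower in APL#2, with ratios of 0.530 to 0.766. Hist2h2bb stood at 0.846 and 0.0559 FPKM, or 14.1 and 1.0 fragments, a ratio of 0.0660 (95% counting interval 0.00156 to 0.433; named for these values). The 14 intronless H2B genes together gave 284.2 and 224.9 fragments, a scaled ratio of 0.730 (95% counting interval 0.611 to 0.874), although each of the 9 intervals held 1. Over all 19 H2B genes the summed level was 24.7 and 26.7 FPKM, a ratio of 1.08, so the direction of the H2B total depends on the genes with introns, Hist1h2bq and Hist1h2br among them.

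Hist1h2bq and Hist1h2br had the largest differences toward APL#2 of all 76 genes. Hist1h2bq (mm9 chromosome 13, 21898281 to 21902068) had 0.242 FPKM in APL#1 but 3.36 in APL#2, giving a ratio of 13.9, and Hist1h2br (21925612 to 21929399) at 0.257 and 3.75, a ratio of 14.6. Only 1.54% of the 50-base stretches of Hist1h2bq and 6.78% of those of Hist1h2br occur in no other gene, so these are close copies that may share reads and count as less than independent genes. Both have spliced transcripts in GENCODE, and no stem-loop letters were found in those. In the authors' deposited table, p was 0.000287 for Hist1h2bq and 0.000189 for Hist1h2br, with q of 0.172 and 0.125. With these 2 rows left out, the summed level of replication-dependent genes had a ratio of 0.696 in place of 0.744.

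H2A and H2B genes often lie head to head and share a promoter region. Pairs were taken here by a gap of at most 1000 bases alone, without a check of strand or of genes between. There were 13 such pairs, with gaps of 167 to 812 bases and with Hist2h2be in 2 of them. In its 812-base pair, with Hist2h2ab, the gene Hist2h2ac lies between, so that pair is not of direct neighbours. The H2A and H2B genes of a pair gave different ratios. The H2B gene had the higher ratio in 10 of the 13, with a median ratio of 0.530 for H2A and 0.807 for H2B genes. Hist1h2ae stood at 2.64 and 1.17 FPKM beside 3.71 and 2.99 for Hist1h2bg, 179 bases away. Hist1h2ap stood at 8.54 and 5.16 FPKM beside 0.257 and 3.75 for Hist1h2br, 167 bases away. The H2A gene had the higher level in 10 of 13 pairs in each library, and the summed level of H2A was 3.29 times that of H2B in APL#1 and 1.88 times in APL#2.

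**Figure D4:**
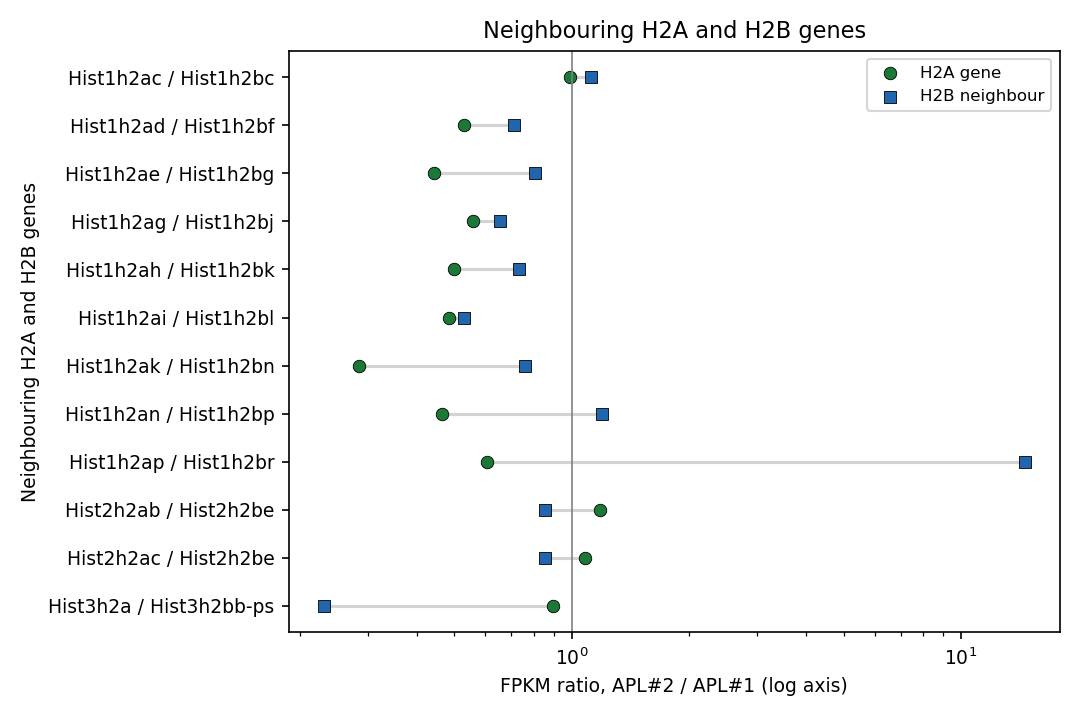
FPKM ratio of APL#2 to APL#1 (log axis) for the H2A gene (circle) and the H2B gene (square) of 12 pairs. The genes of a pair lie at most 1000 bases apart, and between Hist2h2ab and Hist2h2be lies another H2A gene. The pair of Hist1h2aa, at 1 fragment or fewer, is left out. The squares lie to the right of the circles in every Hist1 pair drawn and to the left in the Hist2 and Hist3 pairs.

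H4 genes showed no common direction. Hist1h4c had 2.54 FPKM in APL#1 but 1.15 in APL#2, Hist1h4i at 1.81 and 1.87, and Hist1h4n at 1.62 and 0.526. Of these, Hist1h4c had 16.2 and 7.9 fragments and Hist1h4n 10.3 and 3.6, with counting intervals that hold 1. Summed FPKM over the 12 genes was 11.01 and 8.57, a ratio of 0.779, whereas their estimated fragments summed to 106.1 and 149.2, a scaled ratio of 1.30 (95% counting interval 1.00 to 1.68). The sum of fragments gives more weight to long genes, and 12 and 63.9 of these fragments were on Hist4h4. Most H4 genes had under 10 fragments in each library, and differences inside such intervals were not detectable at this depth.

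Among linker histone genes, Hist1h1c was higher in APL#2 and Hist1h1a lower. Hist1h1c (mm9 chromosome 13, 23830676 to 23832236), the most abundant replication-dependent gene in APL#2, stood at 7.62 and 14.2 FPKM, or 589.6 and 1193 fragments, a ratio of 1.87 (95% counting interval 1.69 to 2.06). The authors' deposited table gave it p = 0.183. Hist1h1a, also named for its values, stood at 1.16 and 0.0595 FPKM, or 36.1 and 2.0 fragments, a ratio of 0.0514 (0.00598 to 0.199), with p = 0.00733 and q = 1.000 in the authors' deposited table. Hist1h1b (0.635 and 0.345 FPKM), Hist1h1d (0.252 and 0.307) and Hist1h1e (0.452 and 0.281) lay between them, and the testis gene Hist1h1t was at 0 and 0.0228. The row of Hist1h1e covers a merged span of 38889 bases that it shares with Hist1h2be, so its level is uncertain.

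Some replication-dependent genes are known to make polyadenylated RNA as well, and a list of 8 such genes was used, of which 7 have a row. Summed over these, among them Hist1h1c, Hist2h2aa2, Hist1h2bc, Hist3h2a, Hist2h2be and Hist4h4, the level was 18.2 FPKM for APL#1 against 30.0 for APL#2, a ratio of 1.65. The other 58 replication-dependent genes summed to 122.0 and 74.4 FPKM, a ratio of 0.609. The members went both ways, with 4 of the 7 higher and 3 lower in APL#2, and Hist1h1c held the largest part of the sum. A further split was made after the values were seen. The 12 genes whose GENCODE transcript runs 500 bases or more past the stem-loop had a median ratio of 0.936. The 28 whose transcript ends sooner had 0.582. In these groups 8 of 12 and 20 of 28 genes were lower in APL#2, beside 60.9% of all genes. Ratios ran from 0.29 to 4.93 and from 0 to 3.45. The 24 genes without the stem-loop letters had a median of 0.537. Histone types were spread unevenly over the groups. How RNA was selected for these libraries is not stated in the labels, and its part in these levels was not tested.

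On the log2(FPKM + 1) scale, 40 histone genes reached a mean of 1 FPKM, 32 replication-dependent and 8 variant, and are called measured. Of these, 5 were at least 2-fold lower in APL#2 (Hist1h2af, Hist1h2ak, Hist1h3b, Hist1h3e and H1f0), beside 2.44% of all 4100 measured genes. Hist1h2bq and Hist1h2br were the 2 at least 2-fold higher, beside 2.10% of all measured genes. By plain ratio, 16 of the 40 stood at 0.5 or less, beside 6.83% of all measured genes, and 3 at 2 or more, beside 3.39%. The replication-dependent median was -0.58 and the variant median -0.72, beside -0.17 for all measured genes. The classes thus lay 0.14 apart, and among genes whose mean reached 5 FPKM the order turned, at -0.10. Lower in APL#2 were 25 of 32 measured replication-dependent and 7 of 8 variant genes, beside 71.6% of all measured genes. The authors' deposited table held p of at most 0.05 for 6 of 71 histone genes above 0 in both libraries, beside 1.57% of all such genes, and q of at most 0.05 for 0 of 76, the smallest being 0.125. The median standard error implied by its statistics was 1.15 (log2) over 37 measured histone genes.

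Of the genes that make and process histone RNA, all 14 listed have a row and 4 were measured, all 4 lower in APL#2 and none by 2-fold, beside 71.6% of all measured genes lower. Their median was -0.32 beside -0.17, and 1 of the 4, Cpsf3, had nearly equal levels. Slbp, the stem-loop binding protein, had 3.27 FPKM in APL#1 but 2.32 in APL#2. Sympk, the scaffold of the cleavage complex, stood at 2.52 and 1.71, Upf1, the helicase used in histone RNA decay, at 2.05 and 1.52, and Cpsf3, the nuclease that cuts histone RNA, at 1.90 and 1.89. Npat, the coactivator of histone transcription in S phase, was below the measured level at 0.291 and 0.226 FPKM.

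Of the histone chaperones and exchange factors, 25 of 26 listed have a row and 19 were measured, 15 of them lower in APL#2, none by 2-fold in either direction, with a median of -0.43 beside -0.17 for all measured genes, of which 71.6% were lower. By plain ratio 1 stood at 0.5 or less, Ssrp1, of the FACT complex, at 4.53 and 1.87 FPKM. Rbbp7, which binds H3 and H4, stood at 22.5 and 14.9 FPKM, and Nap1l4, of the nucleosome assembly family, at 4.69 and 2.98. Npm1 went the other way, at 11.03 and 14.9 FPKM, as did Nap1l1, at 2.97 and 4.50. Among other variants, Cenpa, the H3 variant of centromeres, stood at 2.87 and 1.95 FPKM, H1fx at 0.0204 and 0.151, and H1fnt, H1foo and Hils1 at 0 in both.

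DNA replication genes, which are transcribed in the same phase as replication-dependent histones, were lower in APL#2 in 17 of 19 measured cases, with a median of -0.39, beside 71.6% of all measured genes. On the log2(FPKM + 1) scale Pcna was the 1 at least 2-fold lower, and by plain ratio 5 stood at 0.5 or less (Pcna, Cdc45, Rrm2, Gins2 and Rrm1). Their summed level was 72.6 FPKM for APL#1 against 43.6 for APL#2, a ratio of 0.600, beside 1.01 for the sum of all genes. All 65 replication-dependent histone genes had 0.744, those not listed as polyadenylated 0.609 and the variants 0.638. By estimated fragments, the 59 replication-dependent genes without introns had 0.966. In bulk RNA, fewer cells in S phase and less histone RNA per cell cannot be told apart, and the part of the S phase genes in the histone values was not tested.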

How the data were processed

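RNA from 1 library each of APL#1 and APL#2 was compared. Per the submitters' processing notes, TopHat2 2.0.10 was used with Cufflinks and Cuffdiff on the mm9 build; their settings, the annotation, read layout, strand and RNA selection were not given in these sources. The deposited gene table has a Cuffdiff layout, and its values were read as FPKM, a unit its header does not name. Per the file headers it also holds the authors' test statistic, a score per gene, and the authors' p-value and q-value. The authors' log2 column was not used.

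Histone genes were selected by symbol and split into replication-dependent and variant. The members and lists were chosen with earlier results of these data known, and counts describe these libraries only. Differences were log2 of (FPKM + 1), APL#2 minus APL#1, for genes with mean FPKM of at least 1; no test was run. Genes named are every variant above 0, every replication-dependent gene with mean FPKM of at least 1, and, of the histone RNA, chaperone and other-variant lists, the 4 highest and those at least 2-fold apart; a few others were named after their values were seen, Npat among them. Of the 9 other variants listed, 5 have a row.

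Fragments were estimated from 60 low values of single-exon genes in APL#1 and 64 in APL#2, as FPKM times gene length less 200 bases. Of these values, 83.3% and 85.9% were whole within 0.05. The genes used for this spanned 450 to 3000 bases. Many replication-dependent genes are shorter, down to 312 bases, so their fragments are extrapolated.  Intervals were exact Clopper-Pearson at 95%, conditional on the sum, with estimated fragments rounded to whole numbers. Scripts used Python 3.11.15, pandas 2.3.3, numpy 2.4.6 and scipy 1.17.1 and were tested on simulated data. Sequences came from GENCODE M21 transcripts (GRCm38) and RefSeq promoters (GRCm38.p6); table positions are mm9 and were not converted. Alternatives covered the pseudocount, the minimum FPKM, centring, plain ratios and the choice of members.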

Additional observations from a re-analysis of the deposited data

How the results depend on the processing

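The replication-dependent and variant medians were below 0 under every alternative run. With a pseudocount of 5, the replication-dependent median was -0.23 in place of -0.58, and with no minimum FPKM it was -0.24 while the variant median was -0.68. The difference between the classes changed sign with a minimum mean FPKM of 5, to -0.10, and was otherwise between 0.00 and 0.44. The count of genes at least 2-fold lower in APL#2 was 5; it was 14 with a pseudocount of 0.1, 0 with a pseudocount of 5, 2 with a minimum of 5 FPKM, 3 relative to the all-gene median and 16 by plain ratio. The count at least 2-fold higher was 2. It was 3 with a pseudocount of 0.1, relative to the all-gene median and by plain ratio. With a pseudocount of 5 or a minimum of 5 FPKM it was 0. It was also 0 without Hist1h2bq and Hist1h2br, and with intronless replication-dependent genes only. The replication-dependent summed ratio of 0.744 was 0.732 with H2afx added, 0.604 without the polyadenylated and testis genes, 0.765 with the rows of several symbols, 0.680 without Hist1h1c, its highest gene,, 0.696 without Hist1h2bq and Hist1h2br and 0.679 for intronless genes. The variant ratio of 0.638 was 0.774 without H3f3a. The settings without Hist1h2bq and Hist1h2br and with intronless genes only were chosen after seeing the data. The cause of these shifts was not tested. Leaving out a library was not possible with 1 per leukaemia. No paired analysis was possible because each group holds 1 library. Depth limits the replication-dependent genes too, since 37 of the 59 without introns had at least 20 fragments over both libraries.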
